A study of Mus musculus with 12 samples.

Results

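Pou5f1, the gene of the transcription factor OCT4, and 8 further genes of the pluripotency network (Sox2, Nanog, Klf4, Lin28a, Zfp42, Dppa3, Utf1 and Sall4) were followed in purified male germ cells of Baz1a-deficient mice. Members were chosen by gene symbol, and they make up 9 of the 19057 genes named in the probe table of the array, with 19 of its 45281 probes. They were picked with results of these data known, in particular the level of Pou5f1 in mutant against control spermatids. For that reason the values of all 9 genes in mutant against control spermatids are a description with no test, and so are all further comparisons of Pou5f1 that rest on the mutant spermatids. Pachytene/diplotene spermatocytes and round spermatids had been sorted by Hoechst fluorescence from dissociated testes of adult mice, and RNA was hybridized to Illumina MouseWG-6 v2.0 bead arrays. Controls were heterozygous Baz1a+/- littermates, so that they too carry 1 mutant allele, and mutants were Baz1a-/- mice on a mixed C57BL/6J and FVB/NJ background. The allele lacks an exon of Baz1a, was derived from 1 embryonic stem cell clone, and was deleted with Stra8-Cre, a recombinase made in premeiotic male germ cells. There were 3 mice of each genotype and 1 array per mouse and cell type, that is 3 control spermatocyte, 3 control spermatid, 3 mutant spermatid and 2 mutant spermatocyte arrays, and a further mutant spermatocyte array, replicate 1, that the labels call censored. This last array was normalized with the others, left out of the main fit and used only in an alternative fit.

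In the early embryo and in embryonic stem cells, OCT4 binds DNA together with SOX2, and the pair keeps Nanog, Utf1, Zfp42 and their own genes active. KLF4 is a zinc finger factor of the same network, SALL4 is a zinc finger partner of OCT4, LIN28A is an RNA-binding protein that blocks maturation of let-7 microRNAs, and DPPA3 (STELLA) protects the methylated DNA of the egg and early embryo. The male germ line uses several of these genes in its own way: Pou5f1 is made in primordial germ cells and in spermatogonia and is shut off before meiosis, Sall4, Lin28a and Utf1 mark spermatogonia, and Klf4 is known from round spermatids. BAZ1A (ACF1) is the large subunit of the chromatin remodelling complexes ACF and CHRAC, which space nucleosomes.

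Median bead signal was 101 to 118 units per array, and 36.2% to 41.4% of probes were above background (detection p under 0.05 against the negative-control beads of the same array). The number of arrays limits the precision. Of 9 round spermatid marker genes on the array, 8 were tested and all 8 were higher in control spermatids than in control spermatocytes. Their mean level was 11.04 to 11.27 on the 6 spermatid arrays (all levels are log2 of background-corrected, quantile-normalized signal). It was 6.92 to 8.48 on the 3 control spermatocyte arrays, 7.58 in mutant spermatocyte replicate 2 and 9.59 in replicate 3, and 9.92 in the array left out. Spermatocyte markers were less telling, since 3 of 7 tested were lower in control spermatids and 1 was higher, and the probes of Sycp3 and Hormad1 were not above background on any array. No probe carries the symbol Baz1a in the table used here, so the deletion itself was not checked. In sorted cells, fewer cells of a type and less RNA per cell cannot be told apart.

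The promoters of the 4 member genes that were above background in a whole group of arrays are shown, since these are the genes the results turn on. RefSeq (GRCm38.p6) windows of 250 bases before to 50 bases after the start site were found for 7 of the 9 genes; Dppa3 and Sall4 were not matched. Capitals mark GC boxes (GGGCGG) and CACCC elements, the kind of site that KLF and SP factors read, in Pou5f1, GC boxes and an E-box (CACGTG) in Klf4, the octamer ATTTGCAT, the site of POU factors, in Zfp42, and GC boxes in Utf1, each on both strands.
Pou5f1, chr17:35505782-35506081, plus strand: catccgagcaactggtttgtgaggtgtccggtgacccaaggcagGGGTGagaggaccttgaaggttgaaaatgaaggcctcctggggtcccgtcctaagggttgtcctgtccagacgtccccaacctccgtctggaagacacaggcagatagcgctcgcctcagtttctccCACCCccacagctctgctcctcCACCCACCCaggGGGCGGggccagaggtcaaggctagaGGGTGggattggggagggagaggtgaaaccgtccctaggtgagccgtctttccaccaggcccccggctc
Klf4, chr4:55532426-55532725, minus strand: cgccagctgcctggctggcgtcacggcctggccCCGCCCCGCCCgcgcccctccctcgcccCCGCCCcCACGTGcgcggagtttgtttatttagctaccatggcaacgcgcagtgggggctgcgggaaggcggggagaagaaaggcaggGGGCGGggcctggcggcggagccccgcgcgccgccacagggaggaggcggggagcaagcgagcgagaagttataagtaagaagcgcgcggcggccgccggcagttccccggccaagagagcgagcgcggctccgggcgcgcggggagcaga
Zfp42, chr8:43306960-43307259, minus strand: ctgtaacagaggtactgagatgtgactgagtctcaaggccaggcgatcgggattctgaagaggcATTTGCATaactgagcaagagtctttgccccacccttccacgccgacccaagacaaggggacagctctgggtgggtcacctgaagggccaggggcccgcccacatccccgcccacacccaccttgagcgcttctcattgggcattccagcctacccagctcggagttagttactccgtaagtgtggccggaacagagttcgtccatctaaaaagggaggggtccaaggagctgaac
Utf1, chr7:139943606-139943905, plus strand: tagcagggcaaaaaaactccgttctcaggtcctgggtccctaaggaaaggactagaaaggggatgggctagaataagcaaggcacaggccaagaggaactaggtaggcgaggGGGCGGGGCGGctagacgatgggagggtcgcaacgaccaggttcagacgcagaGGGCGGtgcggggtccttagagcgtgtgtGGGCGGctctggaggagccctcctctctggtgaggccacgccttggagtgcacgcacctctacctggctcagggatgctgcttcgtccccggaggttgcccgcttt
The Pou5f1 window held 1 GC box and 5 CACCC elements, a pair of which overlap, and no octamer, with 62.7% G and C. A second annotated Pou5f1 start, with its window at chr17:35508557-35508856, held 1 CACCC element and 1 SOX core (ATTGTT). The Klf4 window had the highest G and C content of the 9 member windows, 74.3%, with 4 GC boxes of which a pair overlap, 1 E-box and 40 CpG dinucleotides. In Zfp42 the octamer began at base -186 from the start site, and this window was the only one of the 9 with an octamer. Utf1 held 4 GC boxes, a pair of which overlap. Of all 32851 windows in the table, 1.74% held the octamer, 35.7% a GC box, 57.5% a CACCC element, 10.7% the SOX core and 7.15% the E-box, and the median G and C content was 52.7%. These matches describe letters only, and they say nothing of binding.

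Of the 19 member probes, 12 were above background on at least 1 of the 11 arrays in the fit and were tested, from 7 genes; the other 7 probes, among them both probes of Sox2 and the only probe of Dppa3, were above background on none. Over the whole array 28751 of 45281 probes were tested, a share close to that of the members. A probe passed this filter if a single group was high, so the tested probes are not a fair sample of the members. The plot of all 19 probes by array shows 3 genes with signal on most arrays, Klf4, Zfp42 and Utf1, Pou5f1 with signal mainly in mutant spermatids, and single scattered detections elsewhere.

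**Figure D1:**
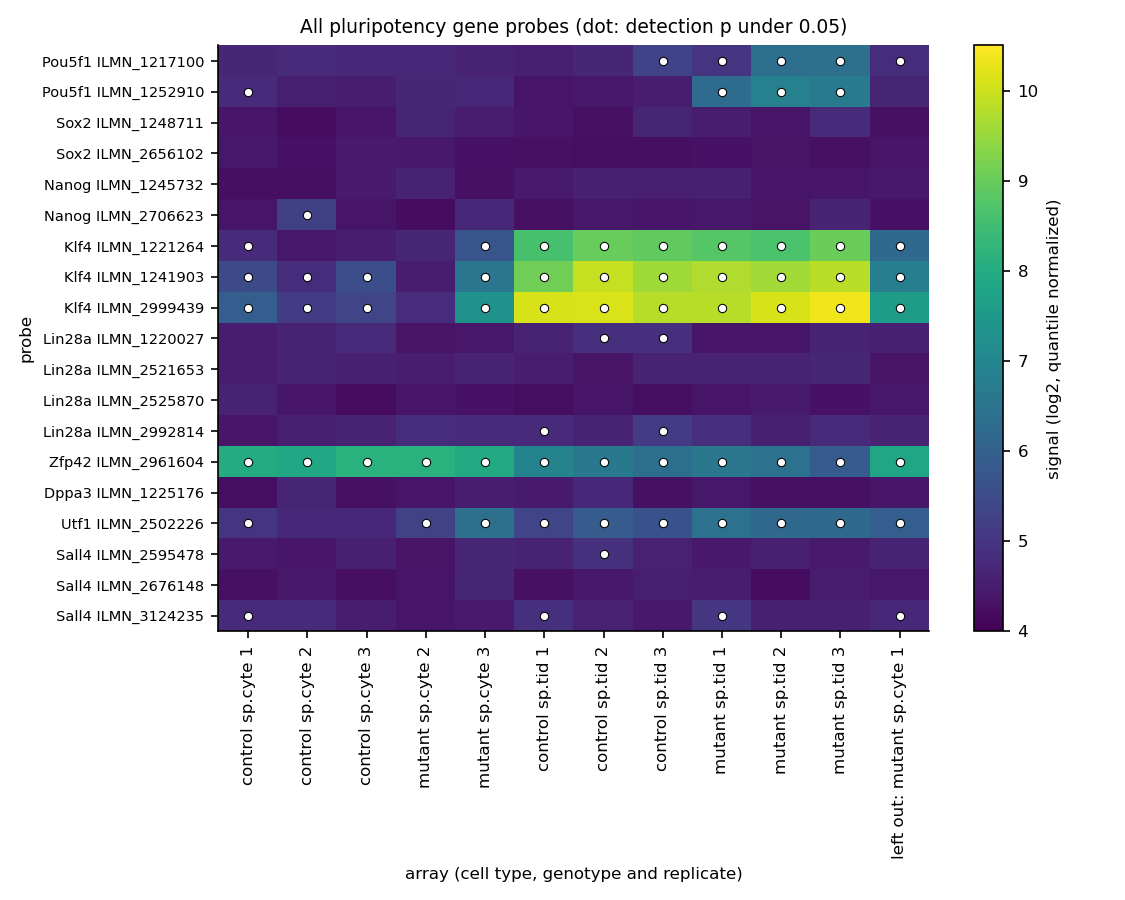
Level of each of the 19 probes (rows, colour in log2 units) on each of the 12 arrays (columns, by cell type, genotype and replicate), with a dot where the detection p was under 0.05. Zfp42 carries a dot on 12 arrays, Klf4 probe ILMN_2999439 on 11, Utf1 on 10, and the probes of Sox2 and Dppa3 on none.

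Pou5f1 was above background in mutant spermatids by both of its probes and was at or near background in the 3 other groups. For probe ILMN_1252910 the levels were 6.27, 6.82 and 6.69 in mutant spermatids and 4.37, 4.41 and 4.53 in control spermatids. All 3 mutant arrays lay above all 3 control arrays, and none of the control arrays was above background. In bead signal before correction, the mutant spermatids gave 147.8, 192.3 and 204.6 units and the controls 106.8, 107 and 100.7, a ratio of 1.73 between the means. After correction the fitted difference was 2.18 on the log2 scale (SE 0.17), and because the control side is only a bound the level was at least 3.45-fold higher. A bound is the mean of the bright group set against the lowest signal that counted as above background on each dim array.

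In spermatocytes the same probe gave 4.77, 4.55 and 4.49 in controls and 4.70 and 4.73 in mutants, and only control replicate 1 was above background, at a detection p of 0.0427. By group the order was mutant spermatids 6.59 (SD 0.28, n = 3), mutant spermatocytes 4.71 (SD 0.02, n = 2), control spermatocytes 4.60 (SD 0.15, n = 3) and control spermatids 4.43 (SD 0.08, n = 3). The lower 3 groups are at background and have no order. Mutant spermatids stood at least 3.38-fold above mutant spermatocytes, with a fitted difference of 1.92 (SE 0.23), and the genotype difference was 2.11 larger in spermatids than in spermatocytes (SE 0.28). Between control spermatids and control spermatocytes, a comparison that does not involve the mutants, the difference was -0.20 (SE 0.16, adjusted p = 0.368).

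The second Pou5f1 probe, ILMN_1217100, moved less. It read 4.99, 6.36 and 6.41 in mutant spermatids and 4.57, 4.71 and 5.32 in control spermatids, so the ranges overlapped: mutant replicate 1 lay below control replicate 3, and both were above background. Its fitted difference was 1.10 (SE 0.30), and the genotype difference was 1.16 larger in spermatids than in spermatocytes (SE 0.49). In bead signal before correction the mutants gave 113.2, 165.4 and 185.9 units and the controls 114.3, 116 and 115, so mutant replicate 1 lay below every control. Without mutant replicate 3 the fitted difference was 0.74 and without replicate 2 it was 0.77, both under 2-fold. All 5 spermatocyte arrays, 4.62 to 4.77, were below background. Across the 11 arrays the levels of both probes were correlated (Pearson r = 0.848), against 0.987 to 0.99 among the 3 Klf4 probes; the arrays fall into groups, and the value is given as a description. Without background correction the difference of ILMN_1252910 in spermatids was 0.84, and with a larger offset of 50 it was 1.26, since the size of a change near background depends on what is subtracted. The probe sequences were not used here, so signal from related transcripts was not examined.

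Pou5f1 is made in spermatogonia, and markers of cells other than spermatids were read on the same arrays. Of 11 tested markers of undifferentiated spermatogonia, 1 was called higher in mutant spermatids, beside 2.87% of all tested probes, and none lower. That was Lhx1, a LIM homeobox factor gene (difference 3.06, SE 0.29), which the paper already names as raised there. The summed background-corrected signal of the 12 marker genes, a sum over genes on each array, was 316 to 712.4 units in mutant spermatids and 122.1 to 238.3 in control spermatids. That gap rests on Lhx1: over the other 11 genes the sums were 126 to 148.3 and 107.3 to 193.5 units and overlapped, and the median difference of the tested genes was 0.06. The defining genes Zbtb16 (PLZF) and Gfra1 were each above background on 1 of 3 arrays in both groups, with differences of 0.09 (SE 0.20) and 0.00 (SE 0.18), and Nanos2, Nanos3, Cdh1 and Eomes were above background on no mutant spermatid array. Ret, the receptor partner of GFRA1, was above background on 3 of 3 mutant and 1 of 3 control spermatid arrays, at means of 5.41 and 4.61 (difference 0.84, SE 0.25, adjusted p = 0.063). Etv5 differed by 0.21 (SE 0.22) and Id4 by -0.63 (SE 0.24, adjusted p = 0.14).

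Some markers of each of 5 somatic cell types were called higher in mutant spermatids, in larger shares than the 2.87% called higher over all tested probes. Among Sertoli genes 1 of 6 was called higher (Sox9, difference 1.21), among Leydig genes 2 of 4 (Cyp17a1 2.14, and Cyp11a1 at least 2.10-fold), among myoid and fibroblast genes 2 of 10 (Igfbp7 3.09, Lum 2.97), among endothelial genes 2 of 9 (Cldn5 3.44, Egfl7 1.94) and among macrophage genes 1 of 8 (Cd14 2.71), and no gene of these lists was called lower. The median differences of the tested genes were 0.23, 1.14, 0.36, 0.12 and 0.19 in that order of lists. The lowest were -0.58, 0.16, -0.41, -0.2 and -0.31. A further 3, 3, 2, 1 and 1 genes with a probe were not above background and were not tested. Of differentiating spermatogonia markers 0 of 6 were called (limma, differences -0.60 to 0.27), where 4.03% of all tested probes were. The summed signals of that list were 105.4 to 252.7 units in mutant and 164.3 to 197.7 in control spermatids. Summed signal was 1372 to 2073 units in mutant and 272.1 to 420.5 in control spermatids for myoid and fibroblast genes, 1257 to 1590 against 167.9 to 289.3 for endothelial genes and 452.7 to 813 against 154.2 to 205.5 for macrophage genes. For Leydig genes (370.9 to 1787 against 143.5 to 1005) and Sertoli genes (194.6 to 388.3 against 151.5 to 446.6) the ranges overlapped. Without the genes called, the sums were 238.4 to 317.3 units in mutant and 128.8 to 236 in control spermatids for 10 myoid and fibroblast genes, 137.1 to 222.9 against 95 to 146.9 for 8 endothelial genes and 145.7 to 245.3 against 118.5 to 144.2 for 8 macrophage genes. The part of any of these cells in the Pou5f1 signal was not tested. Of the 9 tested endothelial genes, 1 was also called higher in mutant than in control spermatocytes, beside 0.264% of all tested probes. It was Cldn5, a tight junction gene (difference 3.11, SE 0.23), which the paper already names as raised in mutant spermatids.

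**Figure D2:**
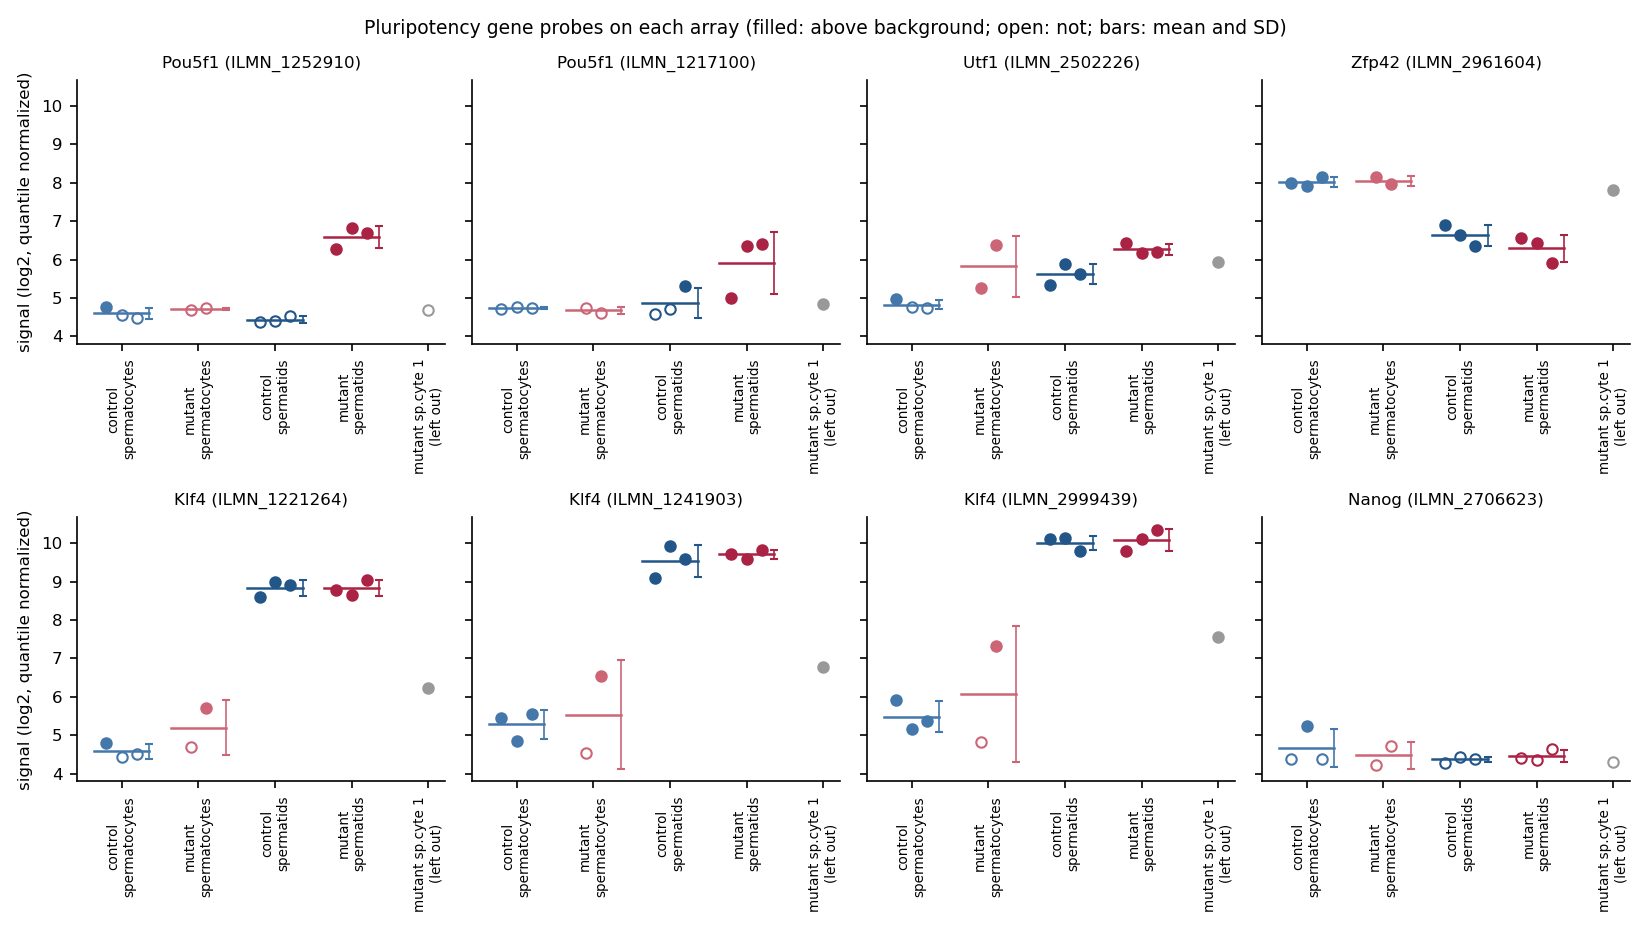
Level (log2 units) of 8 probes on every array, by group, with filled points above background, open points not, and bars for the mean and SD of groups with more than 1 array. Pou5f1 probe ILMN_1252910 is at 6.27 to 6.82 in mutant spermatids and at 4.37 to 4.77 elsewhere, the 3 Klf4 probes stand high in spermatids of both genotypes, and Zfp42 stands higher in spermatocytes than in spermatids.

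Klf4 rose steeply between the cell types. Its probe ILMN_2999439 read 5.93, 5.16 and 5.37 in control spermatocytes and 10.10, 10.13 and 9.80 in control spermatids. That is a difference of 4.40 (SE 0.36, adjusted p = 3.08e-07), or 21.1-fold, and the groups lay far apart. Probes ILMN_1221264 and ILMN_1241903 gave 4.23 (SE 0.21, adjusted p = 1.25e-08) and 4.26 (SE 0.32, adjusted p = 1.53e-07) in the same comparison. The size of this rise depends on the processing, since control spermatocytes were near background, ILMN_1221264 above it on only 1 of 3 arrays. Over the alternatives the lowest differences were 3.01, 2.33 and 2.74 in that order of probes. In bead signal before correction the ratios of the means were 8.41, 4.88 and 6.49. In mutants the rise was 4.05 (SE 0.51, adjusted p = 3.1e-05), 3.65 (SE 0.29, adjusted p = 1.86e-06) and 4.18 (SE 0.45, adjusted p = 1.03e-05) in that order of probes. The mutant values depend on the spermatocyte array kept: for ILMN_2999439 the rise was 2.81 without mutant spermatocyte replicate 2 and 5.30 without replicate 3, and for ILMN_1241903 it was 3.17 and 5.19. Mutant spermatids, at 9.79, 10.11 and 10.35 for ILMN_2999439, covered the control values, and the genotype differences in spermatids were 0.14 (SE 0.38), -0.01 (SE 0.22) and 0.15 (SE 0.34).

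In spermatocytes Klf4 was uneven between mutant mice. Mutant replicate 2 read 4.83 and was not above background, and mutant replicate 3 read 7.32, with the controls at 5.16 to 5.93 in between. Replicate 3 was also the array in the fit with the higher round spermatid marker mean, 9.59 against 7.58 in replicate 2, and the array left out, with 9.92, read 7.57 for this Klf4 probe. The other Klf4 probes had the same order among the mutant arrays, 4.69 and 4.53 in replicate 2, 5.70 and 6.55 in replicate 3 and 6.22 and 6.79 in the array left out. For ILMN_1221264, however, replicate 2 lay within the controls, which were at 4.43 to 4.79. No Klf4 probe was called between genotypes (differences 0.23 to 0.57, lowest adjusted p = 0.978), with a 95% interval of -0.58 to 1.56 for ILMN_2999439. The result rests on which array is kept: without replicate 2 the difference of that probe was 1.70 (adjusted p = 0.0194), and without replicate 3 it was -0.78. The 2 arrays with the highest marker means thus had the highest Klf4 levels, while the other 4 spermatocyte arrays did not follow 1 order. By the cell counts in the paper, mutant replicate 3 was less pure than replicate 2, and control replicate 1 was the least pure of those counted. The array left out had no count, and the paper reports substantial spermatid contamination in it. The part of spermatid RNA in these values was not tested.

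**Figure D3:**
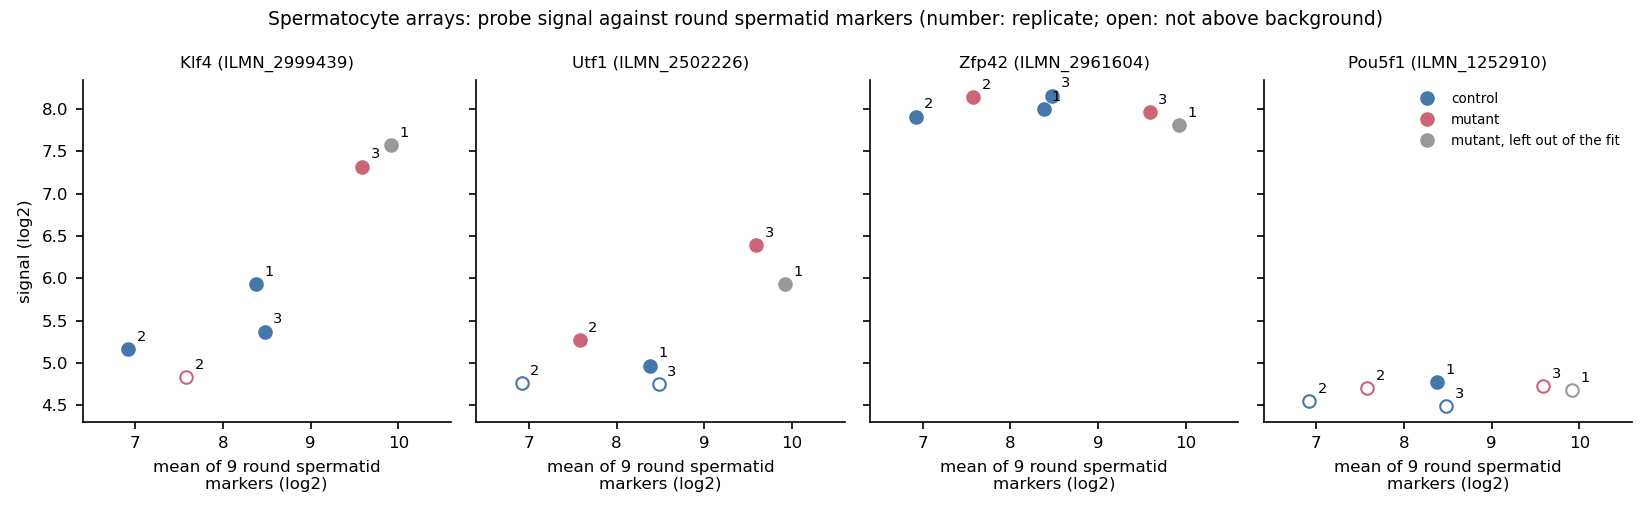
Level of 4 probes (log2 units) against the mean level of 9 round spermatid markers (log2 units) on the 6 spermatocyte arrays, labelled by replicate, with open points not above background. The arrays at 9.59 and 9.92 carry the highest Klf4 and Utf1 levels, while Zfp42 stays between 7.81 and 8.16 and Pou5f1 between 4.49 and 4.77.

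Zfp42, also called Rex1, fell from spermatocytes to spermatids. It was above background on all 12 arrays, at 8.0, 7.91 and 8.16 in control spermatocytes and 6.91, 6.63 and 6.36 in control spermatids. The groups did not overlap, and the difference was -1.42 (SE 0.19, adjusted p = 2.75e-05), that is 2.68-fold lower. Mutant spermatocytes read 8.14 and 7.96 and mutant spermatids 6.57, 6.42 and 5.90, a difference of -1.81 (SE 0.27, adjusted p = 0.000124). Between genotypes the spermatocytes differed by 0.04 (SE 0.26, adjusted p = 1, 95% interval -0.53 to 0.61), and in spermatids the mutant values overlapped the controls (difference -0.34, SE 0.20). Without background correction the fall in controls was 0.90 on the log2 scale and no longer passed 2-fold. By group the order was mutant spermatocytes 8.05, control spermatocytes 8.02, control spermatids 6.63 and mutant spermatids 6.30, and within each cell type the neighbours did not differ beyond their spread.

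Utf1, a chromatin-associated coactivator of embryonic stem cells, was low but readable. It gave 4.97, 4.76 and 4.75 in control spermatocytes, of which only the first was above background, and 5.35, 5.89 and 5.63 in control spermatids. The groups did not overlap; the difference was 0.78 (SE 0.21, adjusted p = 0.00696), which passed the test on p but stayed under 2-fold. Mutant spermatocytes read 5.27 and 6.39, both above every control spermatocyte, and mutant spermatids 6.42, 6.16 and 6.21, all above every control spermatid. The genotype difference in spermatocytes was 0.97 (SE 0.29) and was not called (adjusted p = 0.354, 95% interval 0.34 to 1.59), while without mutant replicate 2 it was 1.52 (adjusted p = 0.0118) and without replicate 3 it was 0.40. In spermatids it was 0.60 (SE 0.22). Mutant replicate 3, the higher spermatocyte array for Utf1, is the array with the higher spermatid marker mean; that part was not tested. Mutant spermatids and mutant spermatocytes did not differ detectably in Utf1, at 0.42 (adjusted p = 0.325, 95% interval -0.23 to 1.06). That value was 0.98 (adjusted p = 0.0074) without mutant spermatocyte replicate 3 and -0.14 without replicate 2.

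The remaining members stayed near background. One Nanog probe, ILMN_2706623, was above background on a single array, control spermatocyte replicate 2 (5.24, against 4.22 to 4.73 on the others), and the other was on none. Lin28a had 2 probes above background on 2 control spermatid arrays each, at 4.35 to 5.15 over all arrays, and 2 probes on none. Sall4 probe ILMN_3124235 was above background on 3 of the 11 arrays, at 4.37 to 5.03, and ILMN_2595478 on 1. In no comparison were these probes called. Their fitted differences lay between -0.34 and 0.39, and at this signal a change would have to lift a gene clear of about 4.73 to 4.91, the lowest signal above background per array, to be seen. Sox2, at 4.22 to 4.78, and Dppa3, at 4.25 to 4.74, were not above background in any group, mutant spermatids included.

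Counted over the members, control spermatids against control spermatocytes called 4 of the 12 tested probes, 3 higher (all Klf4) and 1 lower (Zfp42), beside 28.3% of all 28751 tested probes. The members' median difference was 0.23 and that of all tested probes was -0.05. In mutants, spermatids against spermatocytes called 6 of 12, 5 higher (Klf4 and Pou5f1) and 1 lower, beside 31.3% of all probes, with medians of 0.34 and -0.03. Mutant against control spermatocytes called 0 of 12 with limma (the lowest adjusted p was 0.354), beside 0.410% of all probes. In mutant against control spermatids both Pou5f1 probes passed the thresholds, beside 4.03% of all probes. ILMN_1217100 no longer passed under several alternatives, and ILMN_1252910 fell to 0.84, under 2-fold, without background correction. Nothing is read from the count of called probes in this comparison, since the members were picked with it known. The called probes come from 2 genes in controls and 3 in mutants, and the Pou5f1 probes in the mutant count are there by the choice of members.

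**Figure D4:**
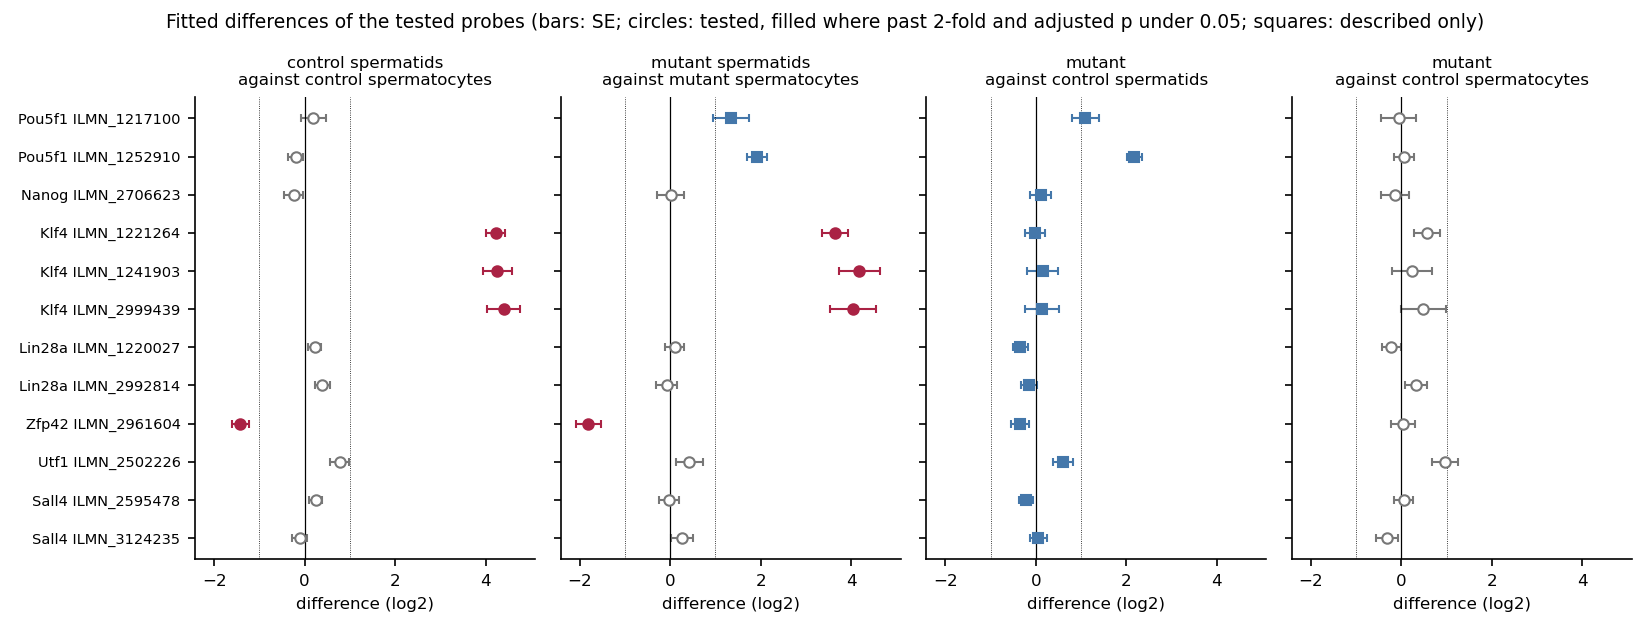
Fitted log2 difference of each of the 12 tested probes in the 4 comparisons, with bars for the standard error, dotted lines at a 2-fold change, filled circles past 2-fold with an adjusted p under 0.05, open circles tested and not past it, and squares for values that are described only. Klf4 lies at 3.65 to 4.40 between cell types in both genotypes, Zfp42 at -1.42 and -1.81, and Pou5f1 at 1.10 and 2.18 between spermatid genotypes.

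Related genes were read by the same fit, 1 probe per gene, to place the members in their families. Among POU factors 3 of 7 tested were lower in control spermatids than in spermatocytes and none higher (median -0.37), beside 15.2% lower and 13% higher over all tested probes. They were Pou5f2, the germ cell relative of Pou5f1 also called Sprm1 (-3.62, SE 0.20, adjusted p = 2.31e-08), Pou6f1 (-3.15, SE 0.18) and Pou2f2, which encodes OCT2 (-2.77, SE 0.22). Pou5f2 was at 12.15 in control spermatocytes and 8.57 in control spermatids, and it fell by 3.61 in mutants too. In mutant against control spermatids 0 of 7 were called (limma; differences -0.43 to 0.42), where 4.03% of all tested probes were.

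KLF factors other than Klf4 included several that rose. Of 13 tested, 5 were higher in control spermatids and none lower, with a median of 0.39, beside 13% higher and 15.2% lower over all tested probes: Klf2 4.22 (SE 0.34, adjusted p = 2.91e-07), Klf5 3.95 (SE 0.32), Klf17 3.26 (SE 0.25) and Klf12 3.05 (SE 0.32) led, before Klf9. Klf2 and Klf5 stand beside Klf4 in the embryonic stem cell network. Of 2 tested Klf5 probes 1 was called. Among SOX factors 3 of 15 were higher and 2 lower, with a median of -0.05. The gains were Sox5 4.29 (SE 0.44, adjusted p = 2.44e-06), a testis-rich SOX factor, Sox30 2.11 (SE 0.26), required for round spermatid development, and Sox10; the falls were Sox18 -1.40 and Sox7 -1.15.

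Of the wider pluripotency network, 3 of 13 tested genes were higher and 2 lower in control spermatids than in spermatocytes, which is near the shares over all tested probes (13% and 15.2%). Higher were Dnmt3l, a cofactor of de novo DNA methylation (4.05, SE 0.31), Esrrb (2.8, SE 0.32) and Tfcp2l1 (2.12, SE 0.26), both transcription factors of naive stem cells, and lower were Stat3, which carries the LIF signal (-2.77, SE 0.24), and Fbxo15. Genes that OCT4 and SOX2 control in stem cells or that mark the primed state were above background in part: 8 of 16 with a probe, Fgf4, Tdgf1, Foxd3 and Gdf3 among them, were above background on no array in the fit, and of the 8 tested 2 fell (Zfp281 -2.68, Dnmt3b -2.52). In mutant against control spermatids 0 of these 8 were called (limma, differences -0.28 to 0.52), where 4.03% of all tested probes were.

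Known regulators of the Pou5f1 gene included Nr6a1 (GCNF), a nuclear receptor that silences Pou5f1 in the embryo and is abundant in spermatids. It was higher in control spermatids (1.53, SE 0.19, adjusted p = 1.41e-05) and differed by 0.04 (SE 0.20) between spermatid genotypes, at 10.74 in mutants and 10.69 in controls. Dnmt1, the maintenance DNA methyltransferase, fell by 3.77 in controls (SE 0.16), and Sp1 (-1.49), Mbd3 (-1.32) and Chd4 fell as well. So 4 of 12 were lower and 1 higher, beside 15.2% lower and 13% higher over all tested probes. Among primordial germ cell genes 3 of 10 were lower, Dazl (-2.64), Tdrd1 (-2.60) and Dnd1 (-1.11), beside 15.2% of all tested probes. Kit was higher (1.51), though only 1 of its 3 tested probes was called. Between spermatid genotypes 0 of 10 were called, where 4.03% of all tested probes were. Of let-7 pathway genes 1 of 6 was higher, near the 13% over all tested probes. It was Dis3l2 (1.77), the exonuclease that degrades uridylated let-7 precursors. Relatives of Sall4, Lin28a, Dppa3 and Zfp42 had 2 of 7 lower, Zfp41 (-1.18) and Dppa5a (-1.02), beside 15.2% of all tested probes.

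Between spermatid genotypes, 6 of the related genes passed the call thresholds. The lists were chosen with earlier results of these data known, so the adjusted p-values given here (limma) are a description. Tcf7l1 (TCF3), a repressor that restrains Pou5f1 and Nanog in stem cells, was at 7.63 in mutants and not above background in controls (4.54). The level was at least 7.08-fold higher, and the genotype difference was 2.12 larger in spermatids than in spermatocytes. The paper already names this gene as raised in mutant spermatids, so no test is attached to it. Sall1, a paralog of Sall4 (8.16 against 5.60, difference 2.53, SE 0.24, adjusted p = 2.84e-05), Sox10 (1.45, SE 0.30, adjusted p = 0.01), Sox9 (1.21, SE 0.23, adjusted p = 0.00496) and Klf7 (at least 1.87-fold, adjusted p = 0.00439) were higher too. Fbxo15 was lower, at 5.66 against 7.45 (-1.75, SE 0.24, adjusted p = 0.00062). By list that made 1 of 12 regulators, 1 of 7 relatives, 2 of 15 SOX and 1 of 13 KLF factors higher and 1 of 13 network genes lower, beside 2.87% higher and 1.16% lower over all tested probes. In mutant against control spermatocytes none of the lists had a call (limma), where 0.410% of all tested probes were called. Neither did POU, primordial germ cell, target or let-7 genes in spermatids, where 4.03% of all tested probes were called. Sox9 is itself a Sertoli cell marker, and the somatic marker values given with Pou5f1 hold for these genes also; their part was not tested.

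**Figure D5:**
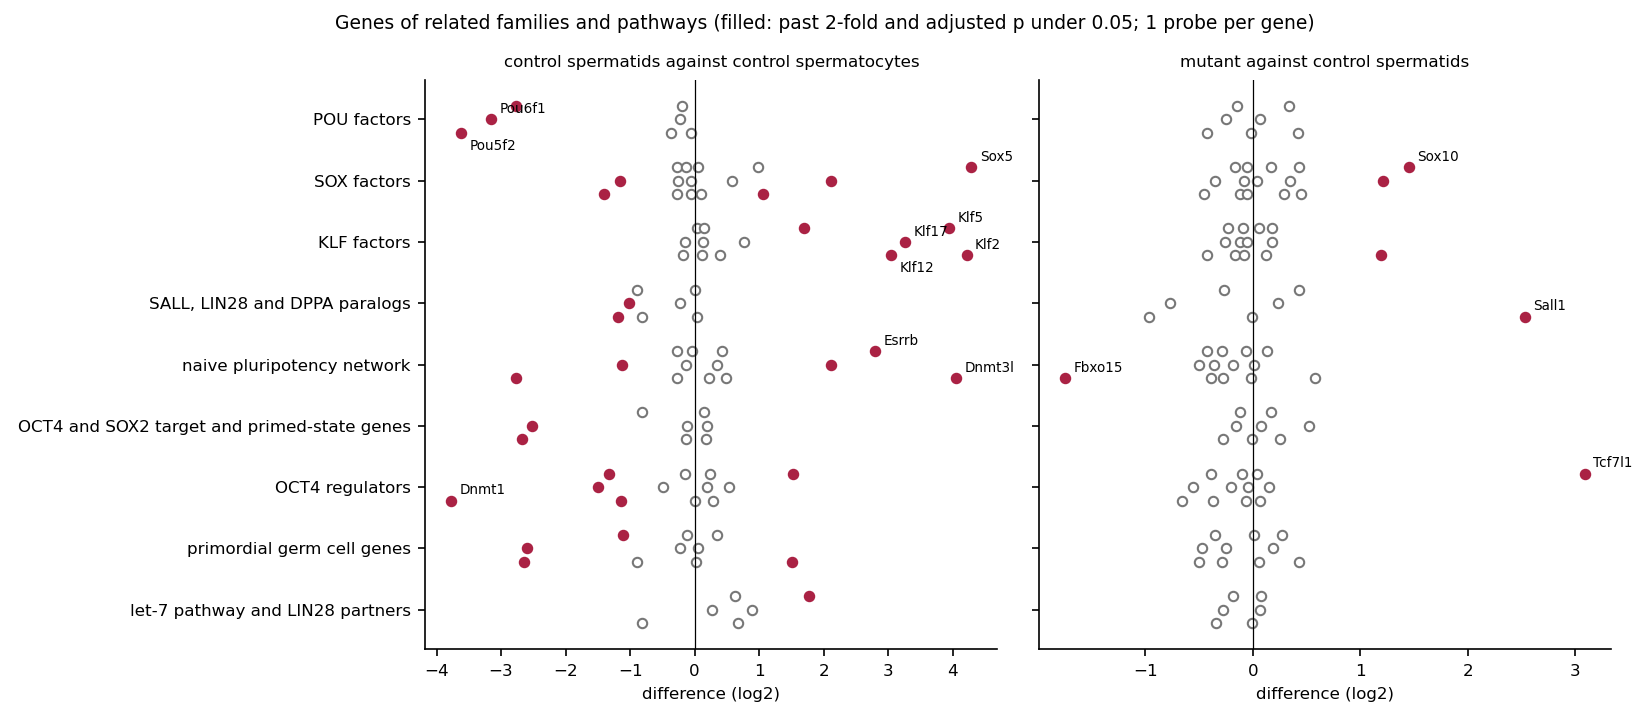
Fitted log2 difference of the tested genes of 9 related lists between control spermatids and control spermatocytes (left) and between mutant and control spermatids (right), 1 point per gene, filled where past 2-fold with an adjusted p under 0.05. KLF genes reach 4.22 and POU genes -3.62 on the left, and Tcf7l1 (3.09), Sall1 (2.53) and Fbxo15 (-1.75) stand apart on the right.

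Genes whose levels tracked Pou5f1 probe ILMN_1252910 most closely over the 11 arrays were Map2k6, a kinase upstream of p38 (Pearson r = 0.989), Tfap2a, the transcription factor AP-2alpha (0.983), Slc9a9, a sodium/proton exchanger (0.981), Slc23a3 (0.979) and Abr (0.978). Each had a mean of 4.34 to 4.88 in the 3 other groups and a higher mean in mutant spermatids, from 5.12 for Abr, which ran from 4.93 to 5.29 there, to 6.88 for Slc9a9. They were picked for this pattern, and no test applies. For Klf4 probe ILMN_2999439 the closest were Gm5168, Creb3l4, a CREB family factor of spermatids, and Gm732 (0.997 each), and Tcp11x2 and Spata31 (0.996 each). Creb3l4 ran from 8.60 in control spermatocytes to 12.17 in control spermatids, with 12.44 in mutant spermatids.

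Of the 5 genes on either side of Pou5f1 on chromosome 17, 8 were tested and 0 were called in mutant against control spermatids (limma), where 4.03% of all tested probes were. H2-Q2, a class I histocompatibility gene, differed by 0.20 (SE 0.20), Tcf19, the next gene, by -0.01 (SE 0.22), and Cdsn, a corneodesmosome gene, by -0.68 (SE 0.21, adjusted p = 0.0696). Psors1c2 was lower in spermatids than in spermatocytes of controls (-1.43, SE 0.20, adjusted p = 4.18e-05) and of mutants (-1.06, SE 0.29, adjusted p = 0.00917), and H2-Q7 was lower in mutant spermatids than in mutant spermatocytes (-1.30, SE 0.47, adjusted p = 0.0408). Beside Nanog on chromosome 6, Dppa3, Gdf3, Apobec1 and C3ar1 were not above background on any array in the fit. Of its 5 tested neighbours, 0 were called in mutant against control spermatids, and Mfap5, a microfibril gene, was lower in control spermatids than in control spermatocytes (-1.55, SE 0.21, adjusted p = 2.69e-05).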

How the data were processed

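RNA of sorted spermatocytes and spermatids was hybridized to 12 bead arrays (Illumina MouseWG-6 v2.0). The authors deposited bead intensity per probe, neither background-subtracted nor normalized, and a detection p-value for each intensity, exported with GenomeStudio 2011.1 per the labels. The authors also deposited log2 values, made with limma 3.12.1 by normexp background correction and quantile normalization. Both steps were repeated here from the intensities (limma 3.58.1, R 4.3.3, offset 16), and the result differed from the deposited log2 values by at most 0.0458. A normexp correction with a small offset widens differences of dim probes.

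Probes with a detection p under 0.05 on at least 1 of 11 arrays were tested. A linear model with 4 groups and array weights was fitted over all of them, with moderated statistics (eBayes) and Benjamini-Hochberg adjustment over the 28751 probes. Called means at least 2-fold with an adjusted p under 0.05. The script was checked on simulated data. Symbols came from the platform probe table, in which 34885 probes have 1 symbol, 18 several and 10378 none. Where a list gene had several probes, the one with the highest mean level was used. Summed signals are background-corrected signals less the offset.

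The members, the 9 lists of related genes, the marker lists and the tests were chosen with earlier results of these data known. Every member was described, together with list genes that passed the call (values for at most the 4 that differed most per list and comparison, and for the marker genes called), the 5 genes most correlated with Pou5f1 and with Klf4, and the 5 neighbours on each side of Pou5f1 and Nanog in RefSeq. Promoter sequences are those of RefSeq on GRCm38.p6.

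Each array is a separate mouse or cell type, and the mice are the replicates. Spermatocytes and spermatids of 1 mouse share its identity in the labels. Their deviations from the group means correlated at 0.227, 0.000941 and 0.183 in controls and at -0.043 and 0.144 in mutants. Which littermates pair across genotypes was not used here. Alternatives were the background correction, offset, scaling, filters, array weights, the censored array, the samples in the fit, replicate blocks and leaving out each array.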

Additional observations from a re-analysis of the deposited data

Results flagged for a closer look

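The genotype difference of Pou5f1 probe ILMN_1252910 was 2.11 larger on the log2 scale in spermatids than in spermatocytes. It was flagged because it passed the limma test of that difference. The gene was chosen for its spermatid values, which enter that test, so the value is a description only. For the second Pou5f1 probe, ILMN_1217100, it was 1.16 (SE 0.49) and did not pass. The genotype difference of Tcf7l1 was 2.12 larger in spermatids than in spermatocytes. The paper already names Tcf7l1 as raised in mutant spermatids, and its list was chosen with earlier results known, so this value is a description too. Over all tested probes, 0.153% passed the limma interaction test (adjusted p under 0.05).

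The mutant spermatocyte array that the labels call censored was left out of the main fit, and 5 member probes were above background on it at a level above all 3 control spermatocyte arrays. Pou5f1 probe ILMN_1217100 read 4.85 there, with a detection p of 0.0171. The Klf4 probes read 6.22, 6.79 and 7.57, and Utf1 read 5.93. Its round spermatid marker mean, 9.92, was above the 6.92 to 9.59 of the other 5 spermatocyte arrays.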

How the results depend on the processing

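Counts of called member probes were 4 of 12 between cell types in controls, with every array left out in turn (4 to 4), and 6 in mutants, with 5 to 6. Between spermatid genotypes the count of 2 became 0 without background correction and 1 with an offset of 50, with no filter, with no array weights or with only the groups compared; leaving out 1 array gave 1 to 2. The count was 1 without control spermatid replicate 1 or 2, control spermatocyte replicate 1 or 3, or mutant spermatid replicate 2 or 3. Between spermatocyte genotypes the count of 0 became 3 with the censored array included and 2 without mutant spermatocyte replicate 2, and leaving out 1 array gave 0 to 2. No member value that passed the call changed direction under any alternative run. The causes of these shifts were not tested.

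With the replicate number as a fixed replicate block, 4, 6, 1 and 0 member probes were called in the 4 comparisons, and with the mouse as a random block 4, 6, 2 and 0 (consensus correlation 0.0913). Between genotypes, same-numbered spermatids deviated with correlations of 0.314, 0.0748 and 0.146, but a number given across genotypes marks no known litter.

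Over all probes, the 8123, 9007, 1158 and 118 calls of the 4 comparisons became 4378, 5004, 307 and 35 without background correction. An offset of 50 gave 553 and 59 between genotypes in spermatids and spermatocytes, and a 1.5-fold threshold gave 2146 in spermatids. The spermatocyte count was 187 with median scaling (53 higher and 134 lower, against 76 and 42), 785 with the censored array, 4 with only the groups compared, 612 and 195 without mutant spermatocyte replicate 2 or 3, and 31 and 69 without control spermatocyte replicate 1 or 3. With 2 mutant spermatocyte arrays, and most members within reach of background, changes that left those members near background were not detectable here.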
